A study of Mus musculus with 9 samples.

Results

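The genes Gad1, Gad2, Ptprn, Ptprn2, G6pc2, Slc30a8, Tg, Tshr and Tph1 encode autoantigens of the pancreatic islet, the thyroid and the endocrine cells of the gut. They were chosen by their mouse symbols, 9 of 23004 symbols in the files, and are covered by 11 of 30930 RefSeq entries. Gad1, Gad2, Ptprn, Ptprn2, G6pc2, Slc30a8 and Tg have 1 entry each, and Tshr and Tph1 have a longer and a shorter entry, of which the one with more counts was used.

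RNA was sequenced from 9 libraries of medullary thymic epithelial cells (mTEC), sorted from pooled thymi of 4-week-old B6 mice as CD45- Ly51- cells with a high (mTEChi) or low (mTEClo) level of MHC class II. One library came from Aire-/- (Aire-KO) mTEChi, carrying the Aire tm1.1Doi allele, and was set against a library of WT mTEChi. A second pair held WT mTEChi and WT mTEClo of the same pool of 4 mice. WT mTEChi were also cultured with actinomycin D, an inhibitor of transcription, at 1 uM for 0, 1.5, 3, 6 and 12 h. Every group is 1 library, so the only spread available is that among the 3 untreated WT mTEChi libraries (of the Aire pair, of the mTEClo pair and at 0 h), and p-values then measure only the spread between these libraries, which may be technical.

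Medullary thymic epithelium transcribes a great many genes that are otherwise confined to single tissues, and their peptides serve to delete or divert T cells that recognise them. Aire, a chromatin-associated protein of the mature mTEChi, raises the expression of many of these genes, and its loss causes autoimmunity against endocrine organs in mice and humans. Glutamate decarboxylases (Gad1 and Gad2), the granule membrane proteins IA-2 and phogrin (Ptprn and Ptprn2), the islet glucose-6-phosphatase relative IGRP (G6pc2) and the zinc transporter ZnT8 (Slc30a8) are targets in type 1 diabetes. Thyroglobulin (Tg) and the thyrotropin receptor (Tshr) are targets in autoimmune thyroid disease. Tryptophan hydroxylase 1 (Tph1), which starts serotonin synthesis in gut enterochromaffin cells, is an intestinal autoantigen of patients who lack AIRE.

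The libraries held between 1746825 reads (12 h of actinomycin D) and 195444567 reads (mTEChi of the mTEClo pair) in RefSeq exons. The 10 medullary markers were present in all 5 untreated libraries, with summed levels of 18812 to 23832 reads per 1e6 reads of the library (CPM) in mTEChi and 12099 CPM in mTEClo, while 4 leukocyte and T cell markers summed to 16.7 to 28.0 CPM. Cd74 and H2-Aa made up most of the mTEChi sums. Of the 10, 5 were at least 3-fold higher in mTEChi than in mTEClo. Krt5 and Krt14 went the other way, at 647 and 314 CPM in mTEChi of the mTEClo pair and 4014 and 1579 CPM in mTEClo. Aire itself stood at 661 CPM in the Aire-KO library, against 259 CPM in its WT partner, so the level of this transcript does not test the genotype label. In mTEChi of the mTEClo pair it was at 444 CPM, against 14.4 CPM in mTEClo of the same mice. In these bulk samples, fewer cells with a transcript and less transcript per cell cannot be told apart.

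The members lie on 5 mouse chromosomes (mm9, gencode vM1): Ptprn on chr1:75243616-75260783, Gad2 on chr2:22477725-22549394, G6pc2 on chr2:69049130-69065898, Gad1 on chr2:70391129-70440071, Tph1 on chr7:53902500-53927907, Tshr on chr12:92639433-92778949, Ptprn2 on chr12:117724193-118516640, Slc30a8 on chr15:52127108-52167353 and Tg on chr15:66502315-66682283. Counting covered the annotated exons without regard to strand. Of the 9 members, only Tg shared annotated exon bases with another gene, 112 bases with Gm17140 on the opposite strand, and the exons of Sla, which lie within the Tg span, shared none with it.

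The family pairs Gad1 with Gad2 and Ptprn with Ptprn2 had folds of different size in the Aire-KO library so the 250 bases before their RefSeq starts are shown 5′ to 3′, with each CG dinucleotide in capitals. The sequences are RefSeq promoters of build GRCm38.p6, each found at 1 place in mm9, which gives the coordinates. For Ptprn, which has 2 listed starts, the window before the outer start is shown. The Gad1 start lies 9057 bases downstream of its gencode start, so the Gad1 window is inside the span given above. The Gad2 start lies 122 bases downstream of its gencode start.
Gad1, chr2:70399936-70400185, plus strand: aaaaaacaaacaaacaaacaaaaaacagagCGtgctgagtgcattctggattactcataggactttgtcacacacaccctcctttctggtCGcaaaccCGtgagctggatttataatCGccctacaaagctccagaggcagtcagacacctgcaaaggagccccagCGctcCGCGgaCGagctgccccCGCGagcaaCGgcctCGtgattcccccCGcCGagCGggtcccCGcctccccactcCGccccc
Gad2, chr2:22477597-22477846, plus strand: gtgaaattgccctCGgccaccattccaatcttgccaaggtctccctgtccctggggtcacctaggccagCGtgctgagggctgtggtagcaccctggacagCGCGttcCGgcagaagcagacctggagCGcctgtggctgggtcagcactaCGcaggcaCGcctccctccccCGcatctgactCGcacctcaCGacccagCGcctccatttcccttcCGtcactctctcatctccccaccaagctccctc
Ptprn, chr1:75260784-75261033, minus strand: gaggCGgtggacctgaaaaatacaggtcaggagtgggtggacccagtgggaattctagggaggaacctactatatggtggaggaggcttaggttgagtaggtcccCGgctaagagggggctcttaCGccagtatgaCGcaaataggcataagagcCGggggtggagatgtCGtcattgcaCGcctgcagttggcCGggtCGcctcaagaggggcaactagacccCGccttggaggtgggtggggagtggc
Ptprn2, chr12:117723943-117724192, plus strand: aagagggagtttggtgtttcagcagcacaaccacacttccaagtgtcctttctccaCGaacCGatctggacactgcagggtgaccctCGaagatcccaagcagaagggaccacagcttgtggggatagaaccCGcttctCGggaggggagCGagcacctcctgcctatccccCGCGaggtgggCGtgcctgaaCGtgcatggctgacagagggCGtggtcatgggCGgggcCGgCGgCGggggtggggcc
The Gad1 window held 17 CG and that of Gad2 13 CG. The Ptprn window held 10 CG and that of Ptprn2 15 CG. Over 32851 mouse promoter windows of the same length the median was 6 CG, with quartiles of 2 and 16. The letters TATAAA, read on either strand, stood in the Gad1 window and in none of the other 8 windows of the members, beside 12.4% of all windows. RefSeq windows matched 6 of the 9 members. G6pc2 had 3 and 5 CG at its 2 starts, and Tph1 had 5 CG at its outer and 19 CG at its inner start. Slc30a8, Tg and Tshr had no window in the table.

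Members differed widely in level in untreated WT mTEChi. Per kb of RefSeq entry, Tph1 averaged 11.6 ± 1.61 CPM per kb (SD, n = 3 libraries, as for the following levels), Ptprn2 7.28 ± 2.03 and Gad1 5.39 ± 1.72 CPM per kb. Ptprn averaged 2.95 ± 0.889 CPM per kb and Tg 1.85 ± 0.666 CPM per kb. The other 4 were scarce, with Tshr at 0.349 ± 0.149, G6pc2 at 0.275 ± 0.132, Slc30a8 at 0.217 ± 0.123 and Gad2 at 0.0708 ± 0.0485 CPM per kb. In this order the ranges over the 3 libraries did not overlap between Tph1 and Ptprn2, between Gad1 and Ptprn or between Tg and Tshr, and did overlap between every other pair of neighbours. The highest of the 3 libraries was between 1.31-fold (Tph1) and 3.84-fold (Slc30a8) above the lowest, beside a median of 1.87-fold over 17830 symbols with at least 100 reads in the untreated libraries.

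**Figure D1:**
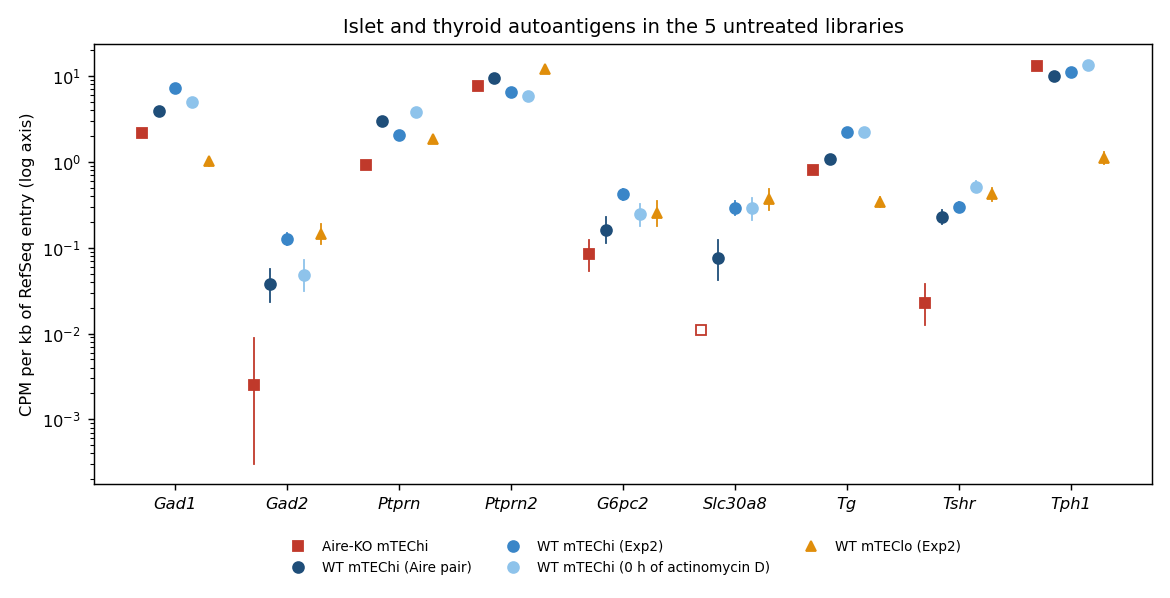
Level of each member in CPM per kb of its RefSeq entry (log axis) in the 5 untreated libraries, 1 point per library with its exact 95% Poisson interval; the open square is the floor of 3 reads where Slc30a8 had 0 reads. Gad2, Slc30a8, Tshr and G6pc2 stood lowest in the Aire-KO library and in mTEClo lay within or above the range of the 3 WT mTEChi libraries. Ptprn also stood lowest in Aire-KO, but its mTEClo level was below that range. Gad1, Tg and Tph1 stood lowest in mTEClo.

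The comparison of Aire-KO with WT mTEChi asks which of these antigens depend on Aire, with the 3-fold limit of the study, applied to genes with at least 10 normalised counts over both libraries. Gad2, Slc30a8 and Tshr were at least 3-fold lower in the Aire-KO library, and no member was 3-fold higher. Gad2 and Slc30a8 reached the minimum of 10 normalised counts through the WT library alone, and with a minimum of 100 only Tshr was left of the 3. These 3 of 9 members stood beside 22.8% of 19764 symbols that were at least 3-fold lower and 2.20% that were at least 3-fold higher, so the share of the members was close to that of all symbols. The median fold of the 9 members, Aire-KO over WT, was 0.604, beside 0.960 for all symbols. Scarce genes passed the limit more often: 61.1% of symbols with 10 to 100 normalised counts over both libraries were 3-fold lower, against 41.3% of those with 100 to 1000 and 9.57% of those with 1000 to 10000.

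Gad2, the smaller glutamate decarboxylase isoform and the main one targeted in human type 1 diabetes, had 1.85 normalised counts (2 reads) in Aire-KO mTEChi, against 23.8 (22 reads) in WT mTEChi. The level was 12.9-fold lower in the Aire-KO library, with an exact counting interval of 3.16-fold to 113-fold. That interval treats each read as independent, and both mates of a fragment may have been counted, so it may be too narrow. In CPM it was 0.0140 in Aire-KO, against 0.211 in the WT partner, 0.711 in mTEChi of the mTEClo pair and 0.273 at 0 h. The Aire-KO value was below all 3 WT values. Its relative Gad1, the larger isoform, had 921 normalised counts in Aire-KO and 1413 in WT mTEChi, 1.53-fold lower (exact interval 1.41 to 1.67). Gad1 was at 6.97 CPM in Aire-KO, against 12.5, 23.5 and 16.3 CPM in the same 3 WT libraries.

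Ptprn, which encodes the dense-core granule protein IA-2, had 431 normalised counts in Aire-KO and 1190 in WT mTEChi, 2.76-fold lower (exact interval 2.48 to 3.08), just short of the 3-fold limit and past it (3.24-fold) when the libraries were scaled to equal read totals. It was at 3.26 CPM in Aire-KO, against 10.6, 7.21 and 13.5 CPM in WT. Ptprn2, its relative of the same granules, had 4775 normalised counts in Aire-KO and 5072 in WT mTEChi, a fold of 0.941. Its 36.1 CPM in Aire-KO fell within the WT values of 45.0, 30.3 and 27.2 CPM, and against the 3 WT libraries together its fitted fold had the other sign (log2 0.34, edgeR adjusted p = 0.864). Among 17 other receptor-type tyrosine phosphatases tested, 5 were at least 3-fold lower in Aire-KO and 2 at least 3-fold higher, and rescaling to equal read totals left 5 lower and none higher.

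Slc30a8, which loads zinc into insulin granules, had 0 reads in Aire-KO mTEChi and 15 reads (16.2 normalised counts) in WT mTEChi. With the floor of 3 reads put in for the Aire-KO library, it was 5.85-fold lower. The exact 95% counting interval allows a difference as small as 4.19-fold, if each read is independent. That floor is 0.0210 CPM in Aire-KO, against 0.144, 0.553 and 0.546 CPM measured in the WT libraries. G6pc2, an islet-restricted glucose-6-phosphatase subunit and a T cell target in NOD mice, had 22.2 normalised counts (24 reads) in Aire-KO and 36.8 (34 reads) in WT mTEChi. Its fold of 0.604 had an exact interval of 0.343 to 1.05, so no difference was detectable at this depth. Its 0.168 CPM in Aire-KO lay below the 0.326, 0.844 and 0.491 CPM of the WT libraries.

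Tshr, the receptor through which pituitary thyrotropin drives the thyroid, had 12.9 normalised counts (14 reads) in Aire-KO, against 111 (103 reads) in WT mTEChi. This was 8.60-fold lower (exact interval 4.90 to 16.3), and its shorter RefSeq entry, with 3 and 35 reads, was 13.6-fold lower (4.30 to 69.3). Tshr was at 0.0979 CPM in Aire-KO, against 0.987, 1.30 and 2.23 CPM in WT. Tg, the scaffold on which thyroid hormone is made, had 909 normalised counts in Aire-KO and 1028 in WT mTEChi, a fold of 0.884. It was at 6.87 CPM in Aire-KO and at 9.12, 18.8 and 18.9 CPM in WT, so that its WT partner was also well below the other 2 WT libraries.

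Tph1 was the one member with a higher value in Aire-KO than in the WT partner, with 3490 normalised counts against 2318 in WT mTEChi, a fold of 1.51 (exact interval 1.43 to 1.59). Its other RefSeq entry gave 1.54-fold. That entry had 3742 and 2084 reads, against 3774 and 2144 for the one used, so it counts mostly the same reads. Its 26.4 CPM in Aire-KO nevertheless fell within the WT values of 20.6, 22.8 and 27.0 CPM. Mast cells also express Tph1, and 5 of 6 mast cell markers were at 0 reads in the Aire-KO library, with the list summing to 0.0909 CPM there and to 29.3 to 38.6 CPM in the WT libraries. Beta cell markers summed to 17.9 CPM in Aire-KO, with Nkx6-1 at 0 reads, and to 58.7 to 95.8 CPM in the WT libraries. Mafa made up most of the Aire-KO sum, at 14.6 CPM, against 4.27 CPM in the WT partner. The other 5 beta cell markers (Ins1, Ins2, Pdx1, Nkx6-1 and Iapp) were at least 3-fold lower in Aire-KO. Thyroid follicular markers, none at 0 reads, summed to 364 CPM in Aire-KO and 173 to 394 CPM in the WT libraries. Dio1 made up most of the thyroid sum, at 353 CPM in Aire-KO and 357 CPM in its WT partner, while 4 of the 8 thyroid markers tested (Pax8, Nkx2-1, Duoxa2 and Iyd) were at least 3-fold lower in Aire-KO, with a list median of 0.257. Because mTEC transcribe many genes of single tissues, such cells and transcripts of mTEC themselves cannot be told apart by these sums. The part of such cells in the members' folds was not tested.

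Set against all 3 untreated WT mTEChi libraries, the Aire-KO library lay below their range in CPM for 7 of 9 members, beside 47.5% of symbols, and above it for none, beside 11.4% of symbols. In edgeR's quasi-likelihood test with Benjamini-Hochberg adjustment over 23916 entries, which assumes that the lone Aire-KO library varies like the WT ones, Tshr (log2 fold -3.62, adjusted p = 0.039) and Slc30a8 (adjusted p = 0.0498) were called lower. These were 2 of 9 members, beside 8.64% of entries called lower. Gad2 missed the threshold (log2 fold -4.50, adjusted p = 0.105), as did Ptprn (log2 fold -1.38, adjusted p = 0.217), and the other 5 had adjusted p of 0.396 or more by edgeR. DESeq2 called Gad2 as well, 3 of 9 members beside 15.6% of entries. The edgeR calls rest on single libraries: without the mTEChi library of the mTEClo pair neither Tshr (log2 fold -3.52, adjusted p = 0.0524) nor Slc30a8 (adjusted p = 0.0582) was called, leaving 0 members called and 2 at an unadjusted p under 0.05, and without the 0 h library Slc30a8 was not (adjusted p = 0.0645). Without the WT partner itself, Gad2 joined them (edgeR adjusted p = 0.0478).

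**Figure D2:**
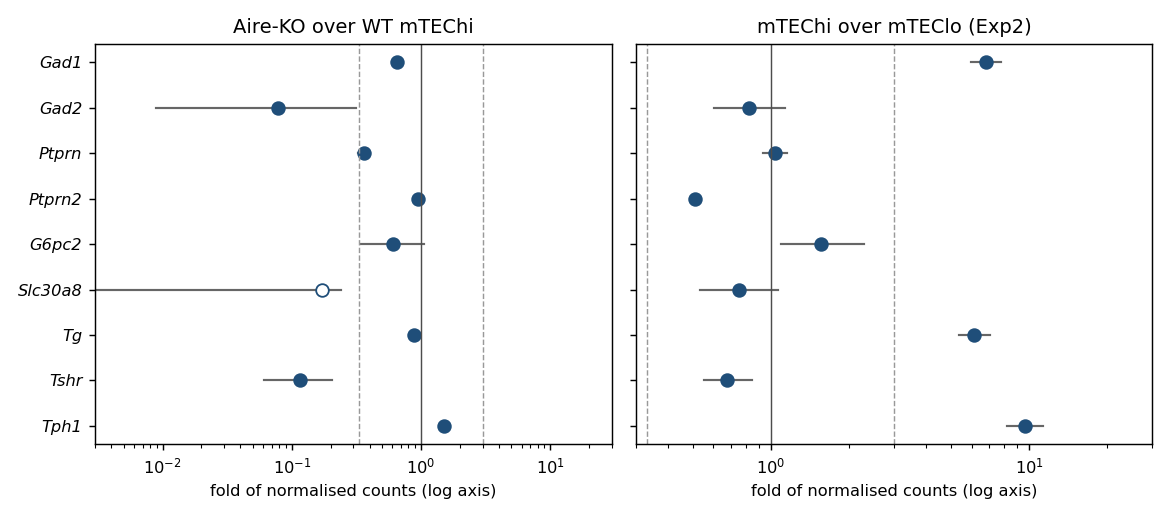
Fold of normalised counts of each member (log axis), Aire-KO over WT mTEChi on the left and mTEChi over mTEClo on the right, with exact 95% counting intervals. Dashed lines mark 3-fold. The open circle is Slc30a8, with the floor of 3 reads in place of 0, and its interval runs on past the left edge. Gad2, Slc30a8 and Tshr lie beyond the lower line on the left only, and Gad1, Tg and Tph1 beyond the upper line on the right only.

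Whether these antigens follow mTEC maturation was asked by setting mTEChi against mTEClo. Gad1, Tg and Tph1 were at least 3-fold higher in mTEChi than in mTEClo, and no member was 3-fold lower. These 3 of 9 stood beside 12.3% of 21858 symbols that were at least 3-fold higher and 14.0% that were at least 3-fold lower. The median fold of the members, mTEChi over mTEClo, was 1.04, beside 1.00 for all symbols.

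Tph1 showed the largest fold of the 9, with 2674 normalised counts in mTEChi, against 278 in mTEClo, 9.62-fold higher (exact interval 8.24 to 11.3). Gad1 had 2756 normalised counts in mTEChi and 406 in mTEClo, 6.79-fold higher (5.97 to 7.75). Tg had 2206 in mTEChi and 359 in mTEClo, 6.14-fold higher (5.35 to 7.07). All 3 were thus abundant transcripts that lay lowest in mTEClo, at 2.25, 3.29 and 2.91 CPM for Tph1, Gad1 and Tg, below each of the 4 mTEChi libraries, the Aire-KO library included.

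The members that were 3-fold lower in Aire-KO did not follow this pattern. Gad2 had 83.5 normalised counts in mTEChi and 101 in mTEClo, a fold of 0.823 (exact interval 0.605 to 1.13). Slc30a8 had 64.9 in mTEChi and 86.5 in mTEClo, a fold of 0.750 (0.534 to 1.06). Tshr had 153 in mTEChi and 225 in mTEClo, a fold of 0.679 (0.549 to 0.844), and its shorter entry gave 0.586. For Gad2 and Slc30a8 the intervals include equal levels, and for all 3 they lie within 3-fold of it, as far as counting error goes.

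Of the remaining members, Ptprn was level, with 847 normalised counts in mTEChi and 817 in mTEClo, a fold of 1.04 (0.935 to 1.15). Ptprn2 was the most mTEClo-rich member, with 3553 in mTEChi and 7002 in mTEClo, a fold of 0.507 (0.488 to 0.528). G6pc2 had 99.2 in mTEChi and 63.2 in mTEClo, a fold of 1.57 (1.10 to 2.29). Tuft cell markers, 6 genes, summed to 198 CPM in mTEChi and 1092 CPM in mTEClo of this pair, and to 157 CPM in Aire-KO and 673 CPM in its WT partner. Neuroendocrine markers, 5 genes, summed to 377 CPM in mTEChi and 274 CPM in mTEClo, and beta cell markers, 6 genes, to 58.7 CPM in mTEChi and 50.2 CPM in mTEClo. Iapp made up most of both beta cell sums, at 41.25 CPM in mTEChi and 43.77 CPM in mTEClo. Ins2, at 8.40 CPM in mTEChi and 0.836 CPM in mTEClo, was the only one of these 6 past 3-fold. Within the neuroendocrine list Insm1 was at 190 CPM in mTEChi and 23.7 CPM in mTEClo, while Chga (fold 0.414) and Chgb (fold 0.296) had the direction of Ptprn2. As in Aire-KO, their part was not tested.

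Set against the 3 untreated WT mTEChi libraries, mTEClo lay below their range for 4 of 9 members (Gad1, Ptprn, Tg and Tph1), beside 39.6% of symbols, and above it for 3 of 9 (Gad2, Ptprn2 and Slc30a8), beside 23.0% of symbols. By edgeR over 24687 entries only Tph1 was called higher in mTEChi (log2 fold 3.22, adjusted p = 0.0371), 1 of 9 members beside 1.92% of entries. Gad1 and Tg, each with a log2 fold of 2.26, missed the threshold with edgeR adjusted p of 0.0965 and 0.104. DESeq2 called all 3, beside 7.39% of entries, and so did edgeR without the 0 h library, whereas without the mTEChi library of the mTEClo pair edgeR called none of them, nor any entry, with 3473 entries at an unadjusted p under 0.05, the 3 members included.

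Genes that work with the members were described from lists of their pathways, by the same 3-fold limits. Over all symbols, 22.8% were at least 3-fold lower in Aire-KO and 2.20% at least 3-fold higher. In mTEChi over mTEClo, 12.3% of all symbols were at least 3-fold higher and 14.0% at least 3-fold lower. Genes named here beside the 3 most abundant of each list were chosen after their values had been seen. Of 17 islet hormones and granule proteins, 12 were at least 3-fold lower in Aire-KO than in WT mTEChi, with a list median of 0.0978, and in mTEChi 4 were at least 3-fold higher than in mTEClo and 3 at least 3-fold lower. Pam, Chga and Scg5, the most abundant of them, gave folds of 1.31, 0.372 and 0.417 in Aire-KO over WT. Insulin 2 (Ins2) was carried by 3 reads in Aire-KO, against 1144 in WT mTEChi (fold 0.00224, exact interval 0.000462 to 0.00657), and was 9.56-fold higher in mTEChi than in mTEClo. Gad2, Slc30a8 and G6pc2 were all within 3-fold between mTEChi and mTEClo, as was the median of this list, at 0.897.

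In thyroid hormone synthesis, 4 of 7 tested genes were at least 3-fold lower in Aire-KO than in WT mTEChi and 2 were at least 3-fold higher in mTEChi than in mTEClo. The iodotyrosine deiodinase Iyd had 71 reads in Aire-KO and 1245 in WT mTEChi, 20.5-fold lower, and was 6.52-fold higher in mTEChi than in mTEClo, the direction also seen for Tg. The iodide transporter Slc5a5 was not lower in Aire-KO, with a fold of 1.54, and Dio1, the most abundant of the list, gave 1.16. Of the 4 thyroid transcription factors, Pax8, Nkx2-1 and Hhex were at least 3-fold lower in Aire-KO, at 46.2-fold, 16.5-fold and 6.87-fold. Tg, at 0.884 of its WT level in Aire-KO, stood far above Iyd, at 0.0488.

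The genes that carry and break down GABA, the product of Gad1 and Gad2, were at least 3-fold lower in Aire-KO in 6 of 7 cases. Abat, which degrades GABA, was 5.99-fold lower, the vesicular transporter Slc32a1 32.7-fold and the plasma membrane transporter Slc6a13 39.4-fold, while Aldh5a1, the next enzyme of breakdown, had a fold of 0.995. Slc32a1 and Slc6a13 were the ones at least 3-fold higher in mTEChi than in mTEClo, at 13.7-fold and 4.44-fold. Gad1 shared their direction between mTEChi and mTEClo but not the size of their change in Aire-KO.

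The 2 relatives of Tph1 in the list of aromatic amino acid hydroxylases, Tph2 and Th, were at least 3-fold lower in Aire-KO. Tph2, which makes serotonin in the brain, was 39.6-fold lower and tyrosine hydroxylase (Th) 83.1-fold. Both were also higher in mTEChi than in mTEClo, Tph2 by 5.06-fold and Th by 15.4-fold, as Tph1 was. Of 10 tested genes of serotonin and melatonin metabolism, Tph2 among them, 4 were at least 3-fold lower in Aire-KO and 6 at least 3-fold higher in mTEChi. The list medians were 0.479 in Aire-KO over WT and 3.53 in mTEChi over mTEClo. Slc6a4, the serotonin transporter and the most abundant of that list, gave 1.19 and 3.85. Its 100 CPM in Aire-KO fell within the WT values of 99.0, 132 and 107 CPM. Maoa, which degrades serotonin, gave 2.18 and 4.96, the same directions as Tph1.

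**Figure D3:**
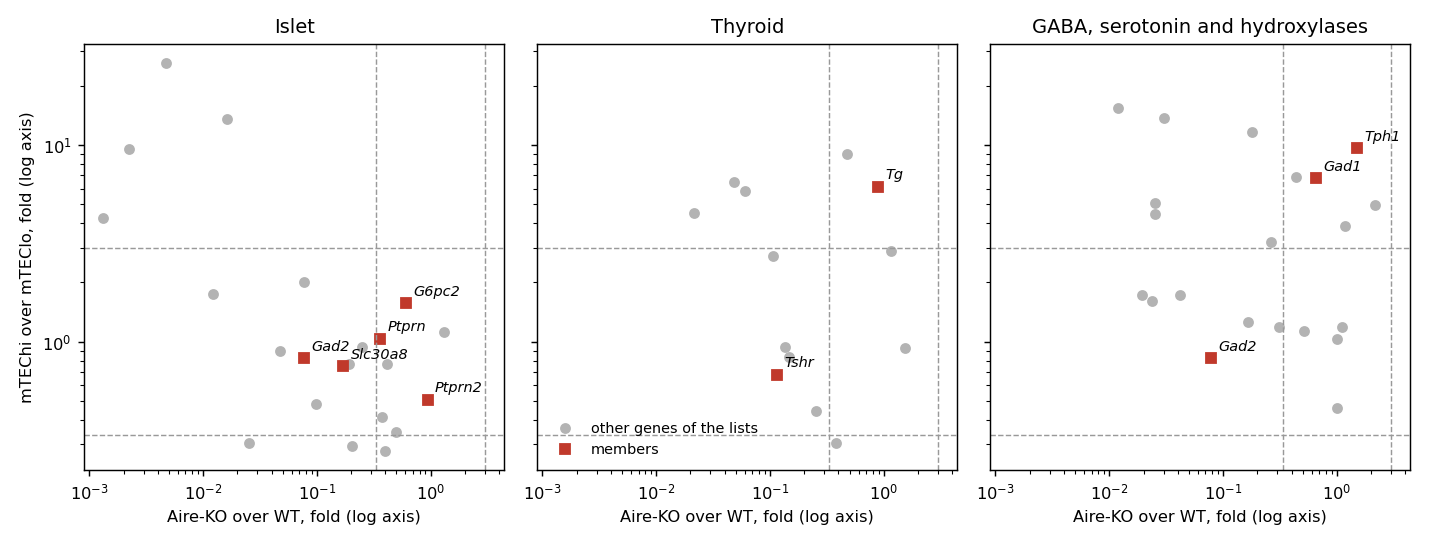
Fold in Aire-KO over WT mTEChi (x, log axis) against fold in mTEChi over mTEClo (y, log axis) for members (red squares) and the other genes of their pathway lists (grey). Genes at 0 reads in 1 library are placed with the floor of 3 reads, and dashed lines mark 3-fold. Tg, Gad1 and Tph1 sit at the upper right, high in mTEChi and within 3-fold in Aire-KO, apart from Gad2, Slc30a8 and Tshr at the lower left.

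In the families of the remaining members, G6pc, the liver subunit related to G6pc2, was 22.3-fold lower in Aire-KO and 5.0-fold higher in mTEChi than in mTEClo, while the ubiquitous G6pc3 had folds of 1.01 and 0.725. Of 9 other zinc transporters of the SLC30 family, Slc30a3 and Slc30a10 (25.6-fold lower) passed the limit in Aire-KO, beside 22.8% of all symbols. Slc30a3 had 0 reads in Aire-KO and was 94.7-fold lower with the floor of 3 reads put in, with an exact upper limit of the fold of 0.0131. Among the relatives of Tshr, 4 of 5 tested were at least 3-fold lower in Aire-KO, and Lgr4, the most abundant, had a fold of 1.38. The 4 were scarce: Lhcgr, Lgr5, Lgr6 and Rxfp2 had 19, 48, 84 and 79 reads in WT mTEChi. Of all symbols with 10 to 100 normalised counts, 61.1% were at least 3-fold lower. Of 19 tested autoantigens of other organs in Aire deficiency, 10 were at least 3-fold lower in Aire-KO and none higher, and 10 were at least 3-fold higher in mTEChi.

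The nearest patterns over the 5 untreated libraries, by Euclidean distance of centred log2 CPM among 17830 symbols, were Tcam1 and Klrb1f for Gad1 (distances 0.318 and 0.321), Pth1r and Raet1d for Tg (0.133 and 0.288) and Tuba3b and Stra8 for Tph1 (0.237 and 0.256). For the Aire-low members they were Tmem52b and Rhox2f for Gad2 (0.510 and 0.558), Kcnd2 and Spatc1l for Slc30a8 (0.233 and 0.411) and Lrrc74b and Adam2 for Tshr (0.291 and 0.391). Ptprn was nearest to Slco1a5 and Myo5b (0.0928 and 0.147), Ptprn2 to Gpr137 and Abracl (0.0853 and 0.169), and G6pc2 to Zdhhc2 and Ppm1e (0.307 and 0.370). The mean profile of the members was nearest to Npff and Lpar3 (0.294 and 0.353). Among the members, Gad1 and Tg were the closest pair, at 0.528, and no other pair came under 1.57. These distances are a description over 5 libraries that share the WT ones.

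Actinomycin D was used to ask how stable the transcripts are. Read totals fell from 21124165 at 1.5 h to 13953047, 11295960 and 1746825 at 3, 6 and 12 h, so that 3 reads stood for 0.142, 0.215, 0.266 and 1.72 CPM. The treated libraries were made with another kit than the 0 h library, so treatment and kit cannot be told apart against 0 h. CPM within a library are relative to all transcripts left, and a stable level means only that a transcript kept its share. Between 1.5 and 12 h the median log2 change was -0.15 for the 9 members (with 0.5 reads added) and -0.25 for 23850 entries with at least 10 reads. With 2 reads added it was 0.44 for the members, a change of sign, and 4 of them had 0 reads at 12 h.

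Gad1, Tph1, Tg, Ptprn2 and Ptprn were well covered. Gad1 was at 16.3, 16.8, 27.8, 26.6 and 30.9 CPM at 0, 1.5, 3, 6 and 12 h, and its 12 h level was 1.85 times its 1.5 h level (exact interval 1.36 to 2.46). Tph1 was at 27.0, 36.6, 34.4, 22.2 and 48.7 CPM, with a ratio of 12 h to 1.5 h of 1.33 (1.05 to 1.66). Tg was at 18.9, 24.8, 24.7, 16.2 and 24.0 CPM, with a ratio of 0.971 (0.692 to 1.33). Gad1 and Tph1 were highest at 12 h, and Tph1 and Tg dipped at 6 h and were higher again at 12 h.

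Ptprn2 was at 27.2, 32.7, 44.3, 18.3 and 29.2 CPM at 0, 1.5, 3, 6 and 12 h, with a ratio of 12 h to 1.5 h of 0.893 (exact interval 0.658 to 1.19). Ptprn was at 13.5, 16.2, 29.1, 20.5 and 10.9 CPM, with a ratio of 0.672 (0.40 to 1.06). Both granule proteins peaked at 3 h, and the counting intervals of their 12 h to 1.5 h ratios included 1. These intervals cover counting error only.

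The 4 scarce members were erratic. Gad2 had 25, 5, 0, 0 and 0 reads at 0, 1.5, 3, 6 and 12 h, and Slc30a8 had 50, 8, 26, 0 and 0. Tshr had 204, 42, 18, 82 and 0 reads, or 2.23, 1.99, 1.29 and 7.26 CPM up to 6 h, where its 6 h level was 3.65 times that at 1.5 h (exact interval 2.49 to 5.43). At 12 h the floor of 1.72 CPM was above the 0 h levels of Gad2, Slc30a8 and G6pc2, so their loss by then was not detectable at this depth.

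G6pc2 had 45, 13, 1815, 0 and 0 reads at 0, 1.5, 3, 6 and 12 h. At 3 h it stood at 130 CPM, 211-fold above 1.5 h (exact interval 123 to 398) and 265-fold above 0 h. Whether these reads are copies of few fragments cannot be told from counts, and the interval treats each read as independent. It was the only one of 25537 entries with at least 100 reads in 1 treated library and a level at least 10-fold above each of the other 4 libraries of the series, with 0 reads counted as 3, a rule set after its value was seen. Its neighbours on chromosome 2 did not share this rise in size, with Abcb11 at 2.65 times and Spc25 at 0.489 times their 0 h levels. The cause was not tested, and the 3 h value rests on 1 library.

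**Figure D4:**
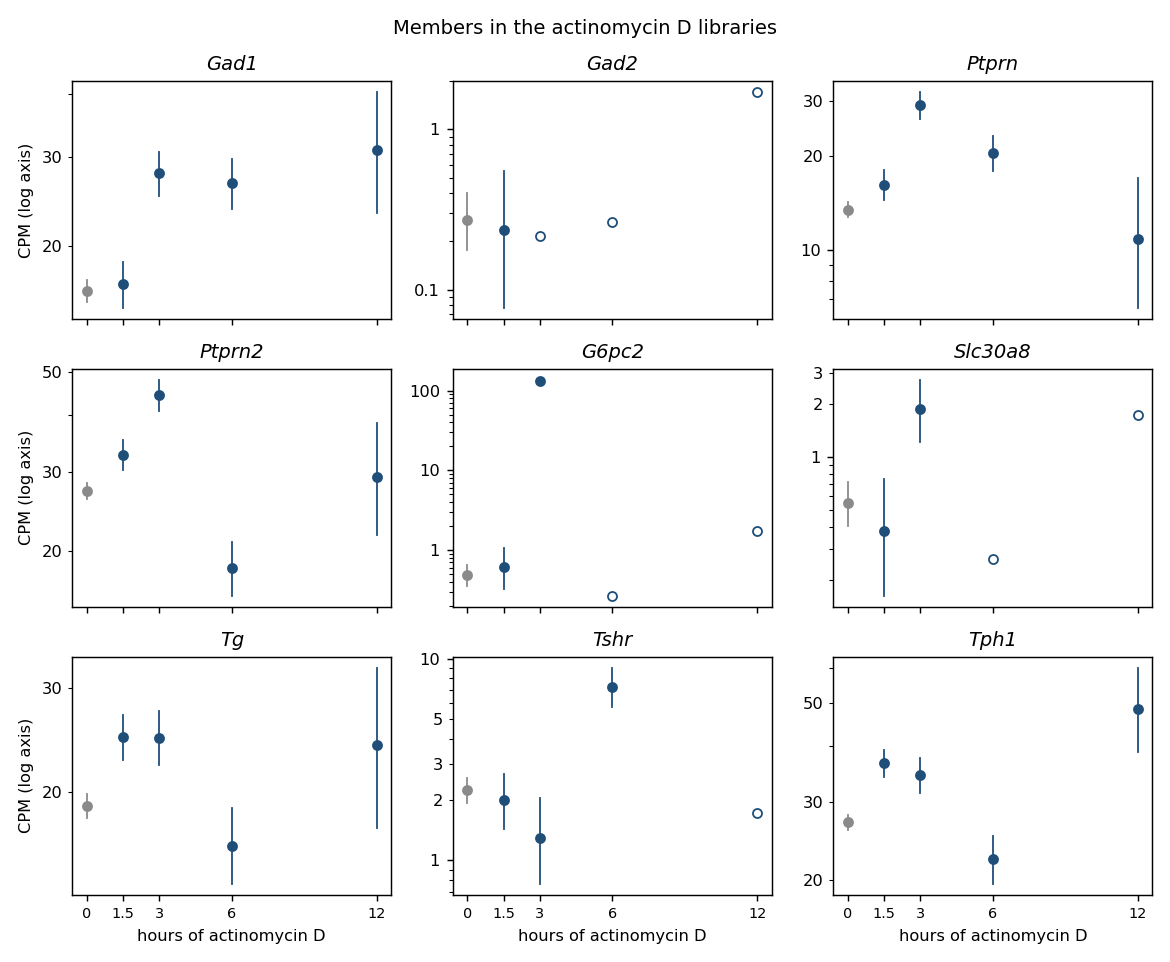
CPM of each member (log axis, its own scale in each panel) against hours of actinomycin D, with exact 95% Poisson intervals; grey marks the 0 h library of another kit, and open circles the floor of 3 reads where none was counted. Gad1, Ptprn, Ptprn2, Tg and Tph1 kept reads at every time, G6pc2 stood at 130 CPM at 3 h alone, and the 4 scarce members had no reads at 12 h.

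A slope over 1.5 to 12 h was called by edgeR for none of the 6 members that passed its filter on low counts. Gad2, G6pc2 and Slc30a8 did not pass it. None of the 6 reached an unadjusted edgeR p under 0.05. DESeq2 gave these 6 members no adjusted p, so it could not call them, and their unadjusted DESeq2 p were 0.333 or more. Over all 20558 entries edgeR called 0% at an adjusted p under 0.05, with 1884 entries at an unadjusted p under 0.05, and DESeq2 called 405 (1.97%). With 4 libraries and 2 residual degrees of freedom, the smallest edgeR adjusted p among the members was 0.837, for Gad1.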

How the data were processed

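RNA of 9 libraries was measured by poly-A RNA-seq, read from both ends after TruSeq kits for the pairs and the 0 h library, and from 1 end after SMARTer amplification and Nextera kits for the treated libraries. The authors filtered reads with CASAVA, aligned them with Bowtie 1.0.0 to mm9 and used bedtools to keep reads wholly within exons of RefSeq entries. For actinomycin D the deposited values are counts of reads. In the pairs the authors gave a signal, each count divided by its library's DESeq size factor (normalised counts). Whole reads were recovered from its steps, with 100% of values whole within 0.1 of a read. The entry lengths in bases are other columns that the authors deposited. The authors' own folds and p-values were not used.

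Folds were ratios of normalised counts with exact conditional counting intervals (95%), 1 RefSeq entry per symbol, at least 10 normalised counts, a 3-fold limit and a floor of 3 reads for a count of 0. Intervals and floors cover counting error only, since reads without molecular identifiers are not independent molecules. The paper states that paired-end reads were trimmed and concatenated to single-end, so both mates of a fragment may be counted. Intervals of the libraries read from both ends may thus be too narrow. edgeR 4.0.16 (TMM, filterByExpr, quasi-likelihood) and DESeq2 1.42.0 in R 4.3.3 were run on the reads of 25401 entries present in all files. The edgeR fits were also run on simulated data in which all libraries had the same spread. Such data cannot test whether a lone library varies like the WT ones. In the pairs, 30794 entries were read, and in the actinomycin D files 25537. Read totals of the pairs were 143001134 (Aire-KO), 104316348 (WT), 195444567 (mTEChi) and 74161592 (mTEClo), and of the 0 h library 91610143. Of all entries, 710 had no symbol. The members and gene lists were chosen with earlier results of these data known. Named genes were all 9 members, Aire, the 2 nearest patterns of each member and of their mean profile, and genes that overlap or neighbour a member. Of the lists, some of the 3 most abundant genes were named, and the others named were chosen after their values had been seen. Alternatives were other scalings, limits, filters, entries, pseudocounts and tools, and leaving out single libraries.
Some genes are not reported here.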

Additional observations from a re-analysis of the deposited data

How the results depend on the processing

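Of 34 alternative values of the counts and medians, 28 stayed within 1.5 times the main count or within the spread of the members, and of 36 rescaled member folds 27 stayed within their counting interval, with none changing direction. Scaling to equal read totals shifted the log2 folds of Aire-KO over WT by -0.23 and gave 4 members at least 3-fold lower in place of 3. With a minimum of 100 normalised counts, 1 member (Tshr) was left of the 3. Leaving out each untreated WT mTEChi library in turn gave 0 to 3 members called lower in Aire-KO and 0 to 3 called higher than in mTEClo by edgeR, and DESeq2 called 3 higher than in mTEClo. Over all entries, DESeq2 called 3738 lower in Aire-KO, against 2066 by edgeR, and 1824 higher in mTEChi, against 475. Without the 12 h library edgeR called 578 slopes. The median change of the members from 1.5 to 12 h was 0.44 with 2 reads added, a change of sign, and from 1.5 to 6 h, an alternative chosen after seeing the data, -0.72, beside -0.36 for all entries. No paired analysis was possible because each group is 1 library, so groups that are compared share at most 1 replicate number. The depth limits Gad2, Slc30a8, G6pc2 and Tshr, all at 0 reads at 12 h.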
